A study of Mus musculus with 16 samples.

Results

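The comparison set early-passage mouse embryonic fibroblasts (MEFs) grown in 20% O2, the oxygen level of room air, against the same kind of cells grown in 3% O2, at passage 3 (P3). Its members were the arrays that the labels place at P3, 8 of the 16 arrays of the series, with 4 in 20% O2 and 4 in 3% O2. Each oxygen level held 2 arrays of wild-type (WT) and 2 of Ercc1-/- MEFs, and the genotypes were pooled with genotype and replicate number as blocks. All MEFs were primary cells of a mixed FVB/n and C57Bl/6 background, with 2 independent cell lines per genotype, harvested below full confluence with no other agent. ERCC1 is a subunit of the ERCC1-XPF endonuclease, which removes bulky DNA lesions and crosslinks, and the Ercc1-/- MEFs lack it in every cell. Total RNA was hybridised to one-colour Agilent miRNA arrays with probes for 611 mouse miRNAs. The study cultured the cells at both oxygen levels because high oxygen adds oxidative damage to MEFs, and the P3 arrays measure cells before late passage. Of the 611 miRNAs, 276 were above background on at least 1 P3 array and 217 were tested.

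MicroRNAs are short RNAs that guide the silencing machinery to messenger RNAs, mainly through the seed at bases 2 to 8 of the mature strand, so that miRNAs with a shared seed share many predicted targets. Cells sense oxygen through the hypoxia-inducible factors (HIFs), which are degraded when oxygen is plentiful and which switch on miR-210 when it is scarce. The miR-34 family is transcribed under the control of p53, a transcription factor that DNA damage and oxidative stress activate, and it slows the cell cycle.

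Mature sequences are given 5′ to 3′ from RefSeq (GRCm38.p6), with the seed in capitals, for miR-210, the miR-34 family and the called miRNAs that lie beside or share a seed with another miRNA described here. The uncalled miR-322, miR-16 and miR-212 are shown for comparison. Of 15 called miRNAs, 13 matched a RefSeq sequence, and miR-34c and miR-467b were named only. An asterisk in the array's older names marks the less abundant strand of a hairpin. The first line is the miRNA with the largest change, from the hairpin at chr7:141221384-141221493 on the minus strand, which overlaps no other annotated gene.
miR-210: cUGUGCGUgugacagcggcuga
The miR-34 family comes from Mir34a at chr4:150068454-150068555 on the plus strand, and from Mir34b at chr9:51103562-51103645 and Mir34c at chr9:51103034-51103110 on the minus strand. The last 2 hairpins lie within 612 bases, where the genes Btg4 and Hoatz are annotated. These sequences are shown because the 5p strands share 1 seed and the 3p strands share another.
miR-34a: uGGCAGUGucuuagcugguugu
miR-34b-5p: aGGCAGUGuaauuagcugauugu
miR-34b-3p: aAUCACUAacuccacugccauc
miR-34c*: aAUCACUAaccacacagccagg
The next 4 share the seed of the miR-15/16 family. Mir497 and Mir195a lie within 419 bases at chr11:70234717-70234800 and chr11:70235042-70235135 on the plus strand, and miR-322 and miR-16 come from other chromosomes.
miR-497: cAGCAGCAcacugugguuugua
miR-195: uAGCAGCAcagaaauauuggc
miR-322: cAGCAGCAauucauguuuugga
miR-16: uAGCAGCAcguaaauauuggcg
The pair from the gene Mcm7 shares the seed of the miR-17 family. The hairpins are Mir106b at chr5:138165737-138165818 and Mir93 at chr5:138165523-138165610, both on the minus strand as is Mir25 beside them.
miR-106b: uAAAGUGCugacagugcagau
miR-93: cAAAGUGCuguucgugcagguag
The last pair comes from 1 locus of 360 bases, with Mir132 at chr11:75173682-75173747 and Mir212 at chr11:75173388-75173478 on the plus strand, and shares a seed.
miR-132: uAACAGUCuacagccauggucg
miR-212: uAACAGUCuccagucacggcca

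The arrays differed in brightness between the slides, each of which held 1 replicate number. On the P3 arrays of replicate 1 the unscaled mean log2 signal was 9.31 to 9.77, with 240 to 257 mouse miRNAs above background. On those of replicate 2 it was 6.98 to 8.65, with 132 to 204. The unscaled mean log2 signal was 8.65 ± 1.23 in 20% O2 and 8.996 ± 0.60 in 3% O2 (SD, n = 4 each), with an exact two-sided permutation p of 0.686. The number of mouse miRNAs above background was 202 ± 57.6 against 226 ± 29.3, with an exact permutation p of 0.457. With 4 arrays against 4, the smallest p this test allows is 0.0286. The permutation ignored the slide, so the difference between slides is part of the spread it measures against. The array of WT MEFs in 20% O2, replicate 2, stood apart. Its unscaled signal was 6.98, it had 132 miRNAs above background where the other 7 had 178 to 257, and its mean correlation with the others was 0.914, against 0.948 to 0.957. Called values and list medians below that moved by over 1.5 times without it are given without it too. On both slides the 20% O2 arrays lay in columns 1 and 3 and the 3% O2 arrays in columns 2 and 4, so oxygen and slide column cannot be told apart.

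In the plot of change against signal, 15 of 217 miRNAs (6.91%) were called at an adjusted p under 0.05 by limma, 11 higher (5.07%) and 4 lower (1.84%) in 20% O2. At an unadjusted p under 0.05 there were 46 (21.2%). Each of the 15 changed the same way in all 4 pairs of arrays of 1 genotype and replicate number, as did 57 of all tested miRNAs upwards (26.3%) and 35 downwards (16.1%). Without the WT 20% O2 replicate 2 array 20 miRNAs were called, 15 higher and 5 lower, and they held all 15. The split of 11 higher and 4 lower depended on the scaling between arrays. It was 7 and 4 when scaled on the miRNAs above background on all 8 P3 arrays, 5 and 4 with the 75th percentile, 3 and 4 with quantiles and 3 and 6 with the mean over all mouse miRNAs. Without scaling only miR-210 was called. The median change of all tested miRNAs was 0.06 on the log2 scale, and it moved to -0.25 when scaled on all mouse miRNAs and to -0.24 without scaling, so smaller changes are relative to the scaling. In total RNA from a culture, fewer cells of a type and less of a miRNA per cell cannot be told apart.

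**Figure D1:**
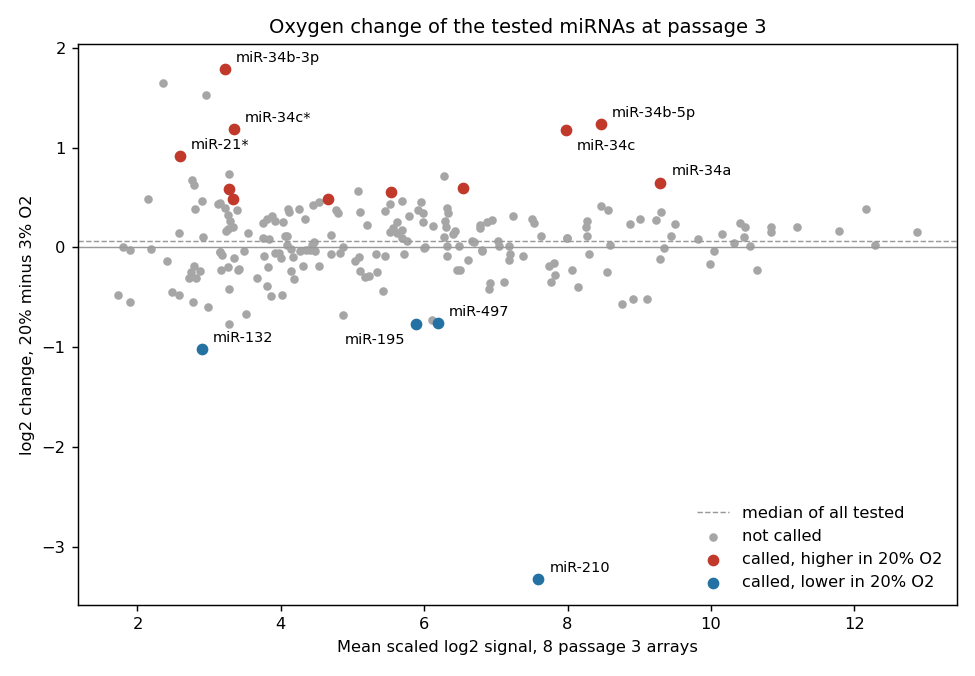
Each point is 1 of 217 tested miRNAs at P3, with the mean scaled log2 signal of the 8 arrays on the horizontal axis and the log2 change (20% minus 3% O2) on the vertical axis. Coloured points were called at an adjusted p under 0.05, 11 higher and 4 lower, and miR-210 lies far below the rest at -3.32, while 3 of the miR-34 strands stand out among the brighter miRNAs.

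miR-210 was 10.01-fold lower in 20% O2 than in 3% O2. In 20% O2 its scaled log2 signal was 6.29 and 6.03 in the WT arrays and 5.50 and 5.91 in the Ercc1-/- arrays (replicates 1 and 2). In 3% O2 it was 9.44 and 9.71 in WT and 8.75 and 9.11 in Ercc1-/-. The groups were separated by 2.47 log2 units between their nearest arrays, the widest gap of all tested miRNAs. The log2 change was -3.32 (SE 0.14, 95% interval -3.66 to -2.99, adjusted p = 5.64e-05 by limma). It was -3.42 within WT and -3.23 within Ercc1-/- MEFs, and it was called within each genotype alone. It was the one miRNA called under each of the 32 other limma settings in which it was fitted, with changes from -3.67 to -2.57.

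The list of hypoxia-inducible miRNAs gathers miRNAs described as rising in low oxygen in other cells. Of its 14 tested members only miR-210 was called, and the median change was 0.04 beside 0.06 over all tested miRNAs. Under the other 5 scalings that median was -0.30 to -0.03, as the median of all tested miRNAs moved, and miR-210 was again the only call. It was 0.0845 without the WT 20% O2 replicate 2 array, beside 0.0584 over all tested miRNAs. The 1 call of 14 is close to the 6.91% called among all tested miRNAs. The other 13 changed by -0.51 to 0.28, with miR-322 the lowest at -0.51 (adjusted p = 0.211). Of 7 tested miRNAs described as acting on HIF transcripts, none was called and the median was 0.21, which turned to -0.13 when scaled on all mouse miRNAs and to -0.14 without scaling. Without the WT 20% O2 replicate 2 array it was 0.0813, beside 0.0584 over all tested miRNAs. The most changed of them were miR-18a, with -0.41 (adjusted p = 0.363), and miR-20b, with 0.31 (adjusted p = 0.466). Without that array miR-18a was at -0.12 and miR-20b at 0.057.

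All strands of the miR-34 family that could be tested were higher in 20% O2. miR-34b-5p had a scaled log2 signal of 8.99 and 9.17 in WT and 8.99 and 9.19 in Ercc1-/- MEFs in 20% O2. In 3% O2 it had 7.43 and 7.98 in WT and 7.98 and 8.01 in Ercc1-/- MEFs. The 4 arrays in 20% O2 were nearly level and lay 0.98 above the highest in 3% O2. Its log2 change was 1.23 (SE 0.12, adjusted p = 0.00344), a 2.35-fold difference. It was the only miRNA besides miR-210 called within WT MEFs alone, where 2 were called (0.922%), while within Ercc1-/- MEFs miR-210 was the only 1 (0.461%).

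miR-34c, from the hairpin next to it, had 8.22 and 8.55 in WT and 8.38 and 9.12 in Ercc1-/- MEFs in 20% O2. In 3% O2 it had 6.67 and 7.70 in WT and 7.29 and 7.90 in Ercc1-/- MEFs. The change was 1.17 (SE 0.13, adjusted p = 0.00462), again with no overlap. miR-34a, from its own locus, was the brightest of the family. Its signal was 9.33 and 9.68 in WT and 9.60 and 9.87 in Ercc1-/- MEFs in 20% O2, against 8.52 and 9.10 in WT and 8.99 and 9.28 in Ercc1-/- MEFs in 3% O2. The groups were only 0.05 apart at their nearest arrays, and the change was 0.65 (SE 0.09, adjusted p = 0.0127). miR-34a was no longer called when any 1 of 5 of the 8 arrays was left out, whereas miR-34b-5p, miR-34c and miR-34c* were called without each array in turn. When both arrays of 1 genotype and replicate number were left out, these 3 strands were called in 1 of 4 cases, that of WT replicate 2, and had adjusted p of 0.0695 to 0.135 in the others. Of all other settings fitted, miR-34b-5p was called in 25 of 32, miR-34c in 22 of 32 and miR-34c* in 20 of 31.

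The other strands of the chromosome 9 hairpins were dim. miR-34c* had 3.78 and 3.78 in WT and 3.97 and 4.23 in Ercc1-/- MEFs in 20% O2, and 2.32 and 2.77 in WT and 3.00 and 2.93 in Ercc1-/- MEFs in 3% O2. Its change was 1.18 (SE 0.12, adjusted p = 0.00344). On the WT 20% O2 replicate 2 array it was not above background, and without that array the change was 1.21 (adjusted p = 0.00707). With the total gene signal of the software the sign turned (-1.44). miR-34b-3p had 3.93 and 5.07 in WT and 3.63 and 3.80 in Ercc1-/- MEFs in 20% O2, and 2.58 and 1.80 in WT and 2.63 and 2.28 in Ercc1-/- MEFs in 3% O2. Its change was the largest upwards, 1.78, with the largest error among the called miRNAs (SE 0.37, adjusted p = 0.0416). The strand passed background on 3 arrays in 20% O2 and 2 in 3% O2, and its highest value came from the WT replicate 2 array, where it was not above background. Without that array the change was 1.38 (SE 0.19, adjusted p = 0.0158). This was the only 1 of the 8 single arrays whose removal kept the call. Of the other settings fitted, miR-34b-3p was called in 11 of 31.

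**Figure D2:**
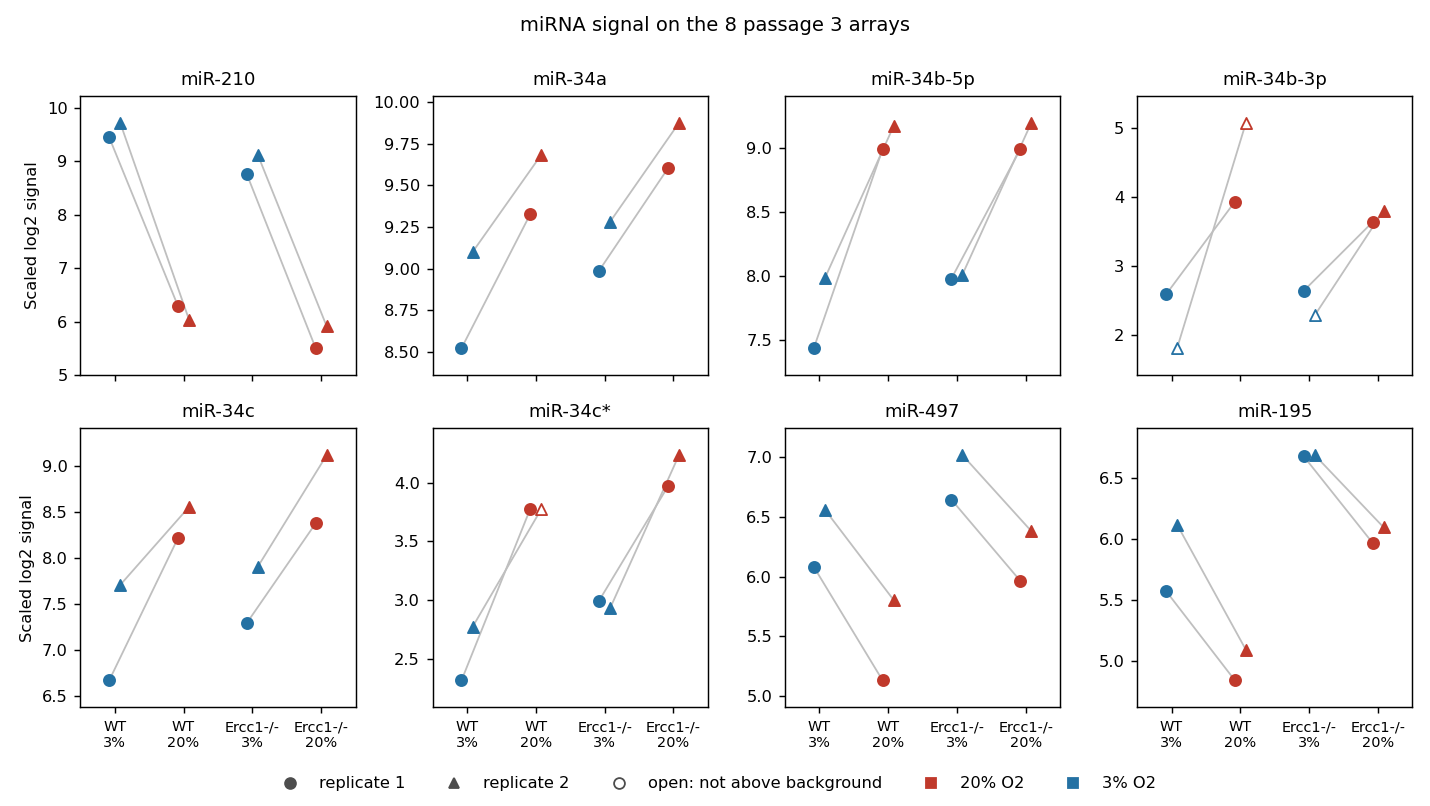
Scaled log2 signal (vertical axis) of 8 called miRNAs on the 8 P3 arrays, grouped by genotype and oxygen, with grey lines joining arrays of 1 genotype and replicate number and open symbols where the miRNA was not above background. Every line falls for miR-210, miR-497 and miR-195 and rises for the 5 miR-34 strands, and miR-497 and miR-195 were lower in WT than in Ercc1-/- MEFs at each oxygen level within each replicate.

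On the list of p53-responsive miRNAs, 4 of 4 tested strands were called higher, all of the miR-34 family, beside 5.07% of all tested miRNAs. They were miR-34a, miR-34b-5p, miR-34b-3p and miR-34c, and miR-34c* was not on the list. miR-34b-3p passed the filter only through the Ercc1-/- group in 20% O2, the oxygen level where it was higher. miR-34b-5p, miR-34b-3p and miR-34c come from 1 locus, so the 4 calls are not independent. The median change of the 4 strands was 1.20 beside 0.06 over all tested miRNAs, and it was 0.86 to 1.13 under the 5 other scalings. Of the 4 calls, 3 were made under 3 of those scalings, 1 when scaled on all mouse miRNAs and 0 without scaling. Of the others on the list, miR-192 and miR-194 were above background on 4 of the 8 arrays each, those of replicate 1, and miR-215 on none. None of them passed the filter. The list was drawn up with earlier results of these arrays known.

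miR-497 and miR-195, neighbours that repress cell cycle genes, were lower in 20% O2. miR-497 had 5.13 and 5.80 in WT and 5.97 and 6.38 in Ercc1-/- MEFs in 20% O2, and 6.08 and 6.56 in WT and 6.64 and 7.01 in Ercc1-/- MEFs in 3% O2. miR-195 had 4.84 and 5.09 in WT and 5.97 and 6.10 in Ercc1-/- MEFs in 20% O2, and 5.58 and 6.12 in WT and 6.68 and 6.69 in Ercc1-/- MEFs in 3% O2. For both, the oxygen groups overlapped when the genotypes were pooled but not within a genotype. The log2 change was -0.75 for miR-497 (SE 0.10, adjusted p = 0.0086) and -0.76 for miR-195 (SE 0.12, adjusted p = 0.0146). Without the replicate block neither was called. Of the other settings fitted, miR-497 was called in 20 of 32 and miR-195 in 16 of 32. With a single array left out, miR-497 was called in 6 of 8 cases and miR-195 in 3 of 8.

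Directions within the seed group depended on the scaling. Of 6 tested miRNAs with that seed, 3 had a lower mean in 20% O2, namely miR-497, miR-195 and miR-322, and the means of miR-15a, miR-15b and miR-16 were higher by 0.02 to 0.26, none of them called. When scaled on all mouse miRNAs or not at all, all 6 had a lower mean, as did 172 and 171 of all 217. In the miR-15/16 family, 2 of 5 tested members were called lower, beside 1.84% of all tested miRNAs, and without scaling none was called. The median change of the family was 0.02. It turned negative under each of the 5 other scalings (-0.33 to -0.058) and without the WT 20% O2 replicate 2 array (-0.017). In the cluster of miR-322 and miR-503, an X-linked group of hairpins whose miRNAs restrain proliferation, none of 8 tested strands was called. Of the 8, 7 had a lower mean, beside 92 of all 217. Under each of the 5 other scalings 7 did too, beside 110 to 172 of all 217. When scaled on all mouse miRNAs 1 of the 8 was called lower. The median was -0.38, and the lowest were miR-503 with -0.72 (adjusted p = 0.128), miR-542-3p with -0.68 (adjusted p = 0.2) and miR-450b-3p with -0.55 (adjusted p = 0.242). miR-322 was at 7.53 and 8.21 in WT and 9.34 and 9.57 in Ercc1-/- MEFs in 20% O2, against 7.51 and 8.59 in WT and 9.92 and 10.68 in Ercc1-/- MEFs in 3% O2. Its change was -0.18 within WT and -0.85 within Ercc1-/- MEFs, and the test of that difference gave an adjusted p of 0.828.

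miR-132, known for its induction by cAMP signalling and its role in neurons, was lower in 20% O2. It had 2.73 and 2.79 in WT and 2.45 and 1.62 in Ercc1-/- MEFs in 20% O2, and 3.51 and 3.40 in WT and 3.56 and 3.18 in Ercc1-/- MEFs in 3% O2. All 4 arrays in 3% O2 but only 2 in 20% O2, those of replicate 1, had it above background. It thus passed the filter only through the 3% O2 groups, where it was higher. The change was -1.02 (SE 0.20, adjusted p = 0.0401), with no overlap. With normexp background correction the sign turned (0.18), and miR-132 was called in 9 of 31 other settings. miR-212, from the same locus and with the same seed, changed by 0.32 (SE 0.18, adjusted p = 0.323), by 0.68 within WT and by -0.04 within Ercc1-/- MEFs.

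miR-106b and miR-93, intronic miRNAs that repress the cell cycle inhibitor p21, were higher in 20% O2. miR-106b had 6.02 and 5.99 in WT and 5.64 and 5.58 in Ercc1-/- MEFs in 20% O2, and 5.41 and 5.52 in WT and 5.03 and 5.05 in Ercc1-/- MEFs in 3% O2. miR-93 had 5.23 and 4.76 in WT and 4.97 and 4.66 in Ercc1-/- MEFs in 20% O2, and 4.52 and 4.50 in WT and 4.38 and 4.27 in Ercc1-/- MEFs in 3% O2. The arrays did not overlap for either, with nearest values 0.06 and 0.13 apart. The changes were 0.56 (SE 0.08, adjusted p = 0.0129) and 0.48 (SE 0.10, adjusted p = 0.0498), the second at the edge of the threshold. miR-106b was called in 14 of 32 other settings and miR-93 in 4 of 32. In the miR-17-92 cluster and its paralogs, a set that promotes proliferation, 2 of 10 tested strands were called higher, beside 5.07% of all tested miRNAs. Of the 10, 6 had a higher mean, beside 125 of all 217. The median was 0.22, but the median was -0.12 when scaled on all mouse miRNAs and -0.13 without scaling. With 75th percentile, quantile or no scaling, and when scaled on all mouse miRNAs, none of the 10 was called. Without the WT 20% O2 replicate 2 array the median was 0.0659, beside 0.0584 over all tested miRNAs.

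Of the remaining called miRNAs, miR-30c, of a family that represses connective tissue growth factor, had 6.46 and 6.85 in WT and 6.98 and 7.05 in Ercc1-/- MEFs in 20% O2. In 3% O2 it had 5.89 and 6.26 in WT and 6.28 and 6.53 in Ercc1-/- MEFs. It rose by 0.59 (SE 0.09, adjusted p = 0.0146), with overlap between the pooled groups. miR-30c was called in 14 of 32 other settings, and in 3 of the 8 with a single array left out. It was the 1 called of 5 tested members of the miR-30 family, beside 5.07% of all tested miRNAs called higher. With 75th percentile, quantile or no scaling, and when scaled on all mouse miRNAs, none of the 5 was called. The family median was 0.22, and -0.12 or -0.13 when scaled on all mouse miRNAs or not at all. miR-30b changed by 0.37 (adjusted p = 0.221).

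miR-21* is the less abundant strand of the hairpin of miR-21, an abundant fibroblast miRNA within the gene Vmp1. It had 3.17 and 3.56 in WT and 2.72 and 2.78 in Ercc1-/- MEFs in 20% O2, and 2.31 and 2.31 in WT and 1.89 and 2.04 in Ercc1-/- MEFs in 3% O2. It rose by 0.92 (SE 0.11, adjusted p = 0.00713), with no overlap. At each oxygen level 3 of 4 arrays had it above background, and without the WT 20% O2 replicate 2 array the change was 0.82 (adjusted p = 0.0068). With the total gene signal the sign turned (-2.45), and miR-21* was called in 17 of 31 other settings. miR-21 itself, at 12.4 to 13.2 on all arrays, changed by 0.15 (adjusted p = 0.349), and its direction turned with quantile scaling, when scaled on all mouse miRNAs and without scaling.

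miR-324-3p, from a hairpin inside the gene Acadvl, had 3.46 and 4.01 in WT and 3.26 and 3.52 in Ercc1-/- MEFs in 20% O2, and 3.12 and 3.07 in WT and 2.71 and 3.03 in Ercc1-/- MEFs in 3% O2. It rose by 0.58 (SE 0.12, adjusted p = 0.0401). Its highest value came from the WT 20% O2 replicate 2 array, where it was not above background, and without that array the change was 0.50 (adjusted p = 0.0313). The sign turned with the total gene signal (-1.53), and the strand was called in 4 of 31 other settings. The other strand, miR-324-5p, changed by 0.57 (SE 0.19, adjusted p = 0.157), and by 0.75 (adjusted p = 0.0196) without the WT 20% O2 replicate 2 array. miR-467b, of the large hairpin cluster in an intron of Sfmbt2, had 3.42 and 3.03 in WT and 4.13 and 3.73 in Ercc1-/- MEFs in 20% O2, and 2.89 and 2.51 in WT and 3.55 and 3.42 in Ercc1-/- MEFs in 3% O2. It rose by 0.49 (SE 0.09, adjusted p = 0.0337), above background on 3 arrays at each oxygen level. It was the 1 called of 8 tested in its cluster, beside 5.07% of all tested miRNAs called higher. Under the 5 other scalings none of the 8 was called, and miR-467b was called in 8 of 31 other settings. With the total gene signal its sign turned too (-0.62).

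**Figure D3:**
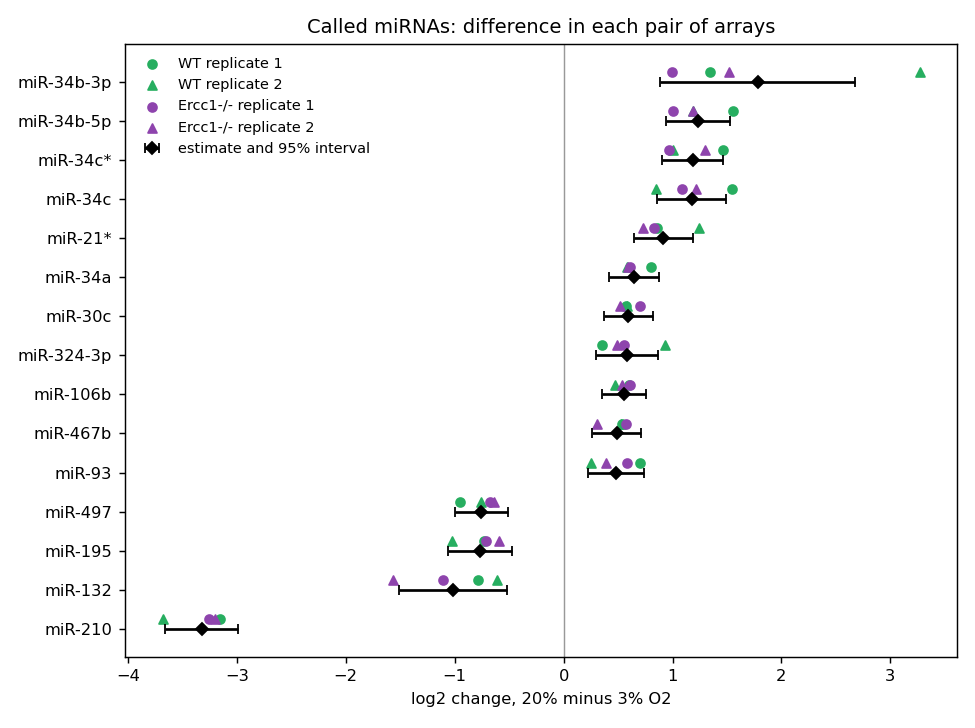
Log2 change (20% minus 3% O2, horizontal axis) of the 15 called miRNAs, with the fitted change and its 95% interval as diamonds and bars and the difference within each pair of arrays of 1 genotype and replicate number as coloured symbols. All 4 pairs lie on the same side of 0 for each miRNA, and the WT replicate 2 pair is the highest for miR-34b-3p at 3.27.

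For 15 of 217 miRNAs (6.91%) the arrays did not overlap, 13 higher (5.99%) and 2 lower (0.922%) in 20% O2. They were 11 of the called miRNAs and 4 others, miR-345-5p, miR-23b, miR-30e and miR-872, none called and each named here for this count after its values were seen. Without the WT 20% O2 replicate 2 array there were 14 and 2.

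Among groups without a call, the miR-29 family, which represses collagen transcripts, had 3 higher means of 3. miR-29b changed by 0.42 (SE 0.10, adjusted p = 0.0668), miR-29c by 0.28 (adjusted p = 0.128) and miR-29a by 0.14 (adjusted p = 0.349), and the family median of 0.28 turned to -0.06 when scaled on all mouse miRNAs and -0.07 without scaling. The miRNAs of the Hox clusters, which mark position along the body, had 4 higher means of 4, with miR-10b at 0.46 (adjusted p = 0.231), miR-196b at 0.45 (adjusted p = 0.254) and miR-196a at 0.27 (adjusted p = 0.363). Their median of 0.36 was 0.20, with 3 of 4 means higher, without the WT 20% O2 replicate 2 array. Without scaling the median turned to -0.03, with 2 of 4 higher. In Ercc1-/- MEFs miR-196b was above background on no P3 array and lay at the floor on all but 20% O2 replicate 2. miR-196a was not above background on either Ercc1-/- replicate 2 array at P3. In the let-7 family, 8 of 9 means were higher, beside 125 of all 217, with a median of 0.20. All 9 were lower when scaled on all mouse miRNAs or not at all, as were 172 and 171 of all 217. Without the WT 20% O2 replicate 2 array the median was 0.0943, beside 0.0584 over all tested miRNAs. In the imprinted Dlk1-Dio3 domain, 33 of 41 tested strands had a lower mean in 20% O2 beside 92 of all 217, with a median of -0.12. No strand was called, and 33 to 39 were lower under the main and the 5 other scalings, beside 92 to 172 of all 217. Without the WT 20% O2 replicate 2 array 31 were lower, beside 87 of all 217.

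**Figure D4:**
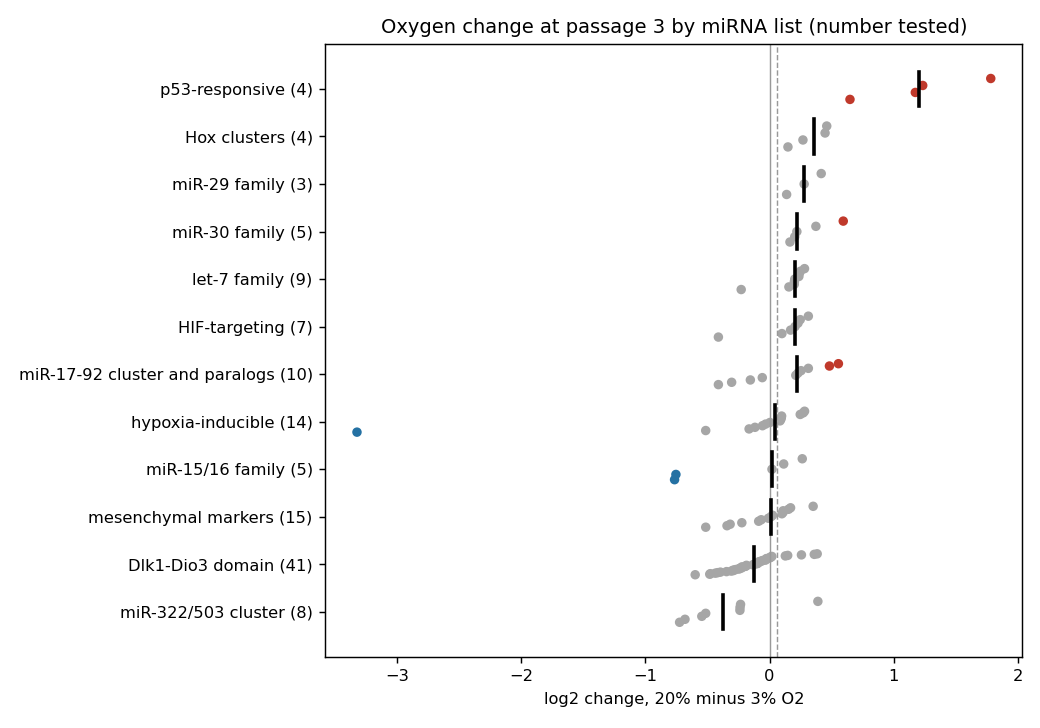
Log2 change (20% minus 3% O2, horizontal axis) of the tested members of 12 miRNA lists, with each list's median as a black bar, called miRNAs in red (higher) or blue (lower), and the median of all tested miRNAs as a dashed line at 0.06. The p53-responsive list lies apart on the right with a median of 1.20, and miR-210 lies apart on the left within the hypoxia-inducible list.

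The fibroblast label was set against marker miRNAs. Of 17 mesenchymal marker strands, 16 were above background on at least 1 P3 array, and none of 15 tested was called. Their summed scaled signal ranged from 20800 to 23070 in 20% O2 and from 17870 to 22250 in 3% O2. The most changed were miR-140, with -0.51 (adjusted p = 0.277), miR-145, with 0.35 (adjusted p = 0.156), and miR-31, with -0.34 (adjusted p = 0.277). No epithelial (7), muscle (7), or liver and endothelial (3) marker strand was above background on any P3 array, among them miR-200c, miR-1, miR-122 and miR-126-3p. Of 6 blood cell marker strands, miR-142-3p and miR-223 were tested and 4 were above background on none. The summed signal was 18.8 to 76.2 in 20% O2 and 22.4 to 42.6 in 3% O2. On the WT 20% O2 replicate 2 array miR-223 had its highest P3 value, 5.28, and miR-142-3p, at 4.04, was not above background. Both tested strands had a lower mean in 20% O2, with changes of -0.31 and -0.18. Of 8 neural marker strands, 4 were above background on at least 1 P3 array. Among these 1 was tested, miR-129-3p, with a change of -0.48 (adjusted p = 0.128). Of 22 strands of the stem cell miR-290 cluster and its relatives 2 were above background on any P3 array. The part of other cells in the changes above was not tested.

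Whether the genotypes differed in their early oxygen response was tested as an interaction. By limma 0 of 217 miRNAs (0%) were called, and 2 (0.922%) had an unadjusted p under 0.05. miR-212 had the smallest p, with a difference of -0.73 (Ercc1-/- minus WT, unadjusted p = 0.0237, adjusted p = 0.828). For miR-210 the change in Ercc1-/- minus that in WT was 0.19 (unadjusted p = 0.544), and for miR-34b-5p it was -0.28 (unadjusted p = 0.314). When WT 20% O2 replicate 1 was left out 4 miRNAs were called, and when any 1 of the other 7 arrays was left out none was. With 2 arrays in each group, a missed threshold does not show that the genotypes respond alike.

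The same oxygen comparison at passage 7 (P7), on 8 other arrays, gave 0 of 217 calls (0%) by limma, with 12 (5.53%) at an unadjusted p under 0.05. In its separate fit miR-210 changed by -2.67 (SE 0.41, adjusted p = 0.0692). miR-497 changed by -2.40 (SE 0.44, adjusted p = 0.102) and miR-195 by -1.58 (SE 0.48, adjusted p = 0.605). The strand miR-34b-5p changed by 0.72 (SE 0.59), miR-34c by 0.91 (SE 0.45) and miR-34a by -0.18 (SE 0.62). Of the 15 miRNAs called at P3, 10 had a P7 mean change in the same direction, and the errors at P7 were larger for all but miR-34b-3p. At P7 miR-34c*, miR-34b-3p, miR-132 and miR-467b were above background on none of the 4 arrays in 3% O2.

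**Figure D5:**
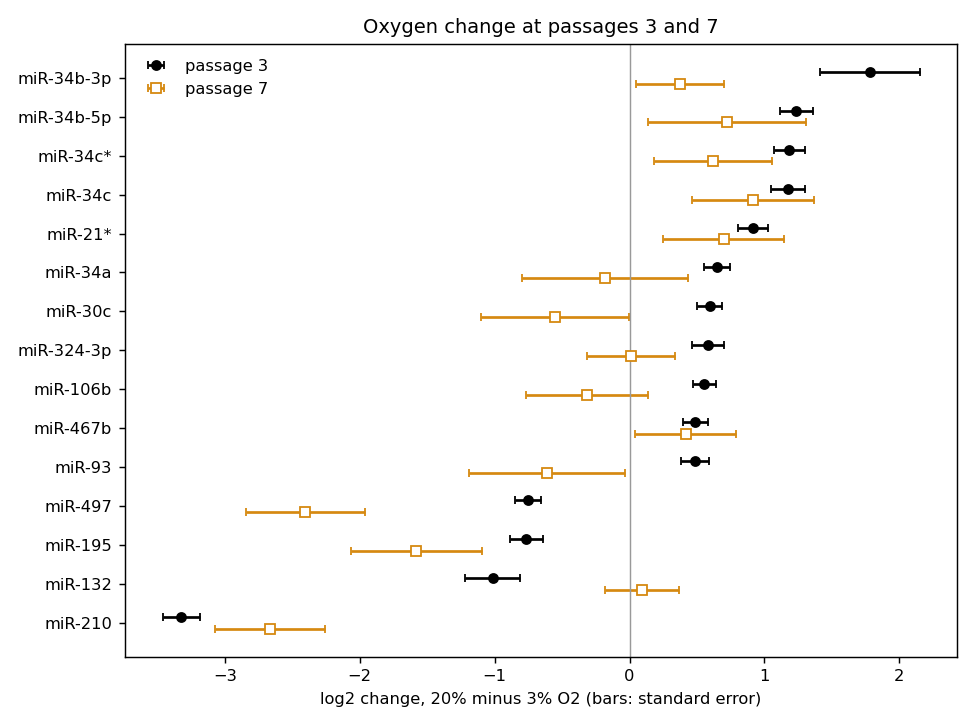
Log2 change (20% minus 3% O2, horizontal axis) of the 15 miRNAs called at P3, at P3 (filled circles) and at P7 (open squares), each from its own fit, with bars for the standard error. miR-210 is far to the left at both passages, with -3.32 and -2.67, while miR-34a, miR-30c, miR-106b, miR-93 and miR-132 lie on opposite sides of 0. On the P7 array of Ercc1-/- MEFs in 20% O2, replicate 2, only miR-210 and miR-21* of the 15 were above background.

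In the test of the passage difference over all 16 arrays, 0 of 217 miRNAs (0%) were called by limma and 10 (4.61%) had an unadjusted p under 0.05. The smallest p belonged to miR-497, with a P3 minus P7 difference of 1.65 (SE 0.52, unadjusted p = 0.00875, adjusted p = 0.628). It was followed by miR-455*, with 1.54 (adjusted p = 0.628), and miR-376b, with -1.07 (adjusted p = 0.628). For miR-210 the difference was -0.66 (SE 0.44, adjusted p = 0.848). Without the P7 array of Ercc1-/- MEFs in 20% O2, replicate 1, 25 miRNAs were called, and without any other single array none was.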

How the data were processed

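Per the labels and the study's methods, total RNA from MEFs was labelled with Cy3 and hybridised to Agilent mouse miRNA (V2) arrays. The intensity values, as deposited by the authors, are background-subtracted processed signals per spot from the Feature Extraction software (version 10.7.1.1 in the file headers), not scaled between arrays. Each array has 13715 spots. Control and outlier spots were left out, spots were averaged per probe and probes per miRNA. A miRNA counted as above background if the software marked a share of 0.5 or more of a probe's spots. Scaling gave every array the same mean log2 value for the 57 miRNAs that passed background on each of the 16 arrays, and signals under 2.82 after scaling were set to that floor. A miRNA was tested where it passed background on both replicates of any of the 4 P3 groups, which left 217.

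The 8 P3 arrays were fitted with limma 3.58.1 in R 4.3.3, with oxygen, genotype and replicate number as terms (degrees of freedom 4 residual, 2.13 prior), and p was adjusted over all 217 by Benjamini-Hochberg. Changes within genotypes and differences between genotypes or passages were contrasts of fits with 1 mean per group, with the replicate number as a block (within each passage). The replicate number is also the slide. It pairs the arrays: differences between replicates correlated between the P3 groups across the tested miRNAs with r of 0.42 to 0.71. Replicates of a group correlated with r of 0.92 to 0.98. Per the methods 2 independent cell lines were used per genotype, and the number of arrays limits the precision. The scripts were tested on simulated data.

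miRNAs with values in the text are miR-210, the called miRNAs with the largest changes, the most changed members of the lists, the other strands of called hairpins, those with the smallest p in the tests of differences and those whose arrays did not overlap, up to a fixed number of each. The members, the lists and this rule were chosen with earlier results of these data known. Alternatives covered the block, the samples in the fit, scaling, background, filter, floor, variance prior, single arrays left out and the methods' unpaired test with unequal variance. The arrays hold no mean raw signal, so normexp with an offset of 50 used the median signals. Viral miRNAs were left out. Array names were matched to RefSeq strands by hand.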

Additional observations from a re-analysis of the deposited data

Results flagged for a closer look

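Among 80 sets of 4 arrays, 3 held an array far from the other 3, where chance gives about 1 in 20. The sets covered most miRNAs with values in the text and 3 array-wide measures, at each oxygen level. They left out miR-223 and miR-142-3p. The mean correlation of the WT 20% O2 replicate 2 array with the other P3 arrays was 0.914, against 0.951 to 0.955 for the other 20% O2 arrays. miR-34b-5p was lowest on the WT 3% O2 replicate 1 array, at 7.43 against 7.98 to 8.01 for the other 3% O2 arrays. miR-324-5p was highest on the Ercc1-/- 20% O2 replicate 2 array, at 5.70 against 5.23 to 5.27. The causes were not tested.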

How the results depend on the processing

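Beside the 15 miRNAs called at P3, the count was 5 with no replicate block, 4 with oxygen alone, 1 with all 16 arrays and no replicate block and 2 with all 16 arrays and the replicate block within passage. It was 9 with 75th percentile scaling, 9 when scaled on all mouse miRNAs, 7 with quantile scaling, 1 without scaling, 3 with normexp and 2 with the total gene signal. The methods' test gave 3 at the study's threshold (miR-210, miR-132 and miR-34b-3p) and 0 after Benjamini-Hochberg adjustment. With the pair of genotype and replicate number as a replicate block it was 11. Leaving out 1 array gave 4 to 20, the lowest without WT 3% O2 replicate 1, and leaving out both arrays of 1 genotype and replicate number gave 1 to 24. Other settings kept the count within 1.5 times. miR-210 was called under each of 32 other limma settings, and not after adjustment of the methods' test.

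Within WT MEFs the 2 calls became 0 to 61 with 1 array left out (61 without WT 20% O2 replicate 1), 1 with no replicate block and 1 without scaling. Within Ercc1-/- MEFs 1 became 0 to 1. The genotype difference gave 0 to 4 calls and the passage difference 0 to 25 with 1 array left out, and 0 under the other settings, with or without the replicate block. The unscaled signal difference of -0.35 ranged from -0.72 to 0.21, turning without WT 20% O2 replicate 2, and that in miRNAs above background from -42.9 to -1.25.

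Directions were followed for the same miRNAs, without miR-223 and miR-142-3p, and turned as follows. Scaled on all mouse miRNAs, miR-196a was at -0.070, miR-20b at -0.026, miR-21 at -0.19, miR-212 at -0.020, miR-29a at -0.20 and miR-29c at -0.06. Without scaling they were at -0.078, -0.034, -0.19, -0.028, -0.21 and -0.068, and the genotype difference of miR-212 was 0.22. With quantile scaling miR-21 was at -0.14. With normexp miR-129-3p was at 0.11, miR-132 at 0.18, miR-18a at 0.19 and miR-450b-3p at 0.18. With the total gene signal miR-196b was at -0.76, miR-21* at -2.45, miR-324-3p at -1.53, miR-34c* at -1.44, miR-376b at 0.033, miR-455* at -0.67 and miR-467b at -0.62. That signal holds an error estimate where a miRNA was not detected. Whether this or anything else turned the directions was not tested. Signal over background limits the strands near the floor, and on the WT 20% O2 replicate 2 array no scaled signal under 17.97 was above background.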
